A study of Mus musculus with 33 samples.

Results

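Wild-type mouse cerebellum was sequenced in each of 3 experiments of this study, and the 11 resulting libraries are described here: 3 from experiment 1A, 4 from experiment 1B and 4 from experiment 2, of 33 libraries in all. They were chosen by their labels, as every library of wild-type cerebellum. All came from male C57Bl/6J mice aged 1 month, from frozen whole tissue, and were made from polyadenylated RNA with a stranded kit. Each wild-type set served as the control of its own experiment, for mice whose noncoding RNA Cyrano carries a changed site for miR-7 (experiment 1A), for mice lacking Cyrano (experiment 1B) or for mice lacking the microRNA genes Mir7a1 and Mir7b, called Mir7DKO (experiments 1B and 2). The submitters made and sequenced wild-type libraries anew for each experiment, compared groups only inside an experiment, and call the replicates biological. Animals, dissection, library preparation and sequencing therefore cannot be told apart as sources of a difference between experiments. The 7 Mir7DKO cerebellum libraries, 4 of experiment 1B and 3 of experiment 2, are used below only as other mice handled in the same experiments.

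The cerebellum is dominated by small granule neurons, which receive input from the brainstem and drive the Purkinje cells, the sole output neurons of the cerebellar cortex. Bergmann glia, oligodendrocytes, vessels and blood, meninges and choroid plexus make up the rest of a dissected block, and the share of the last 3 depends on how the tissue is taken. Some messenger RNAs answer within minutes to activity or stress, among them the immediate early genes such as Fos, the chaperones of the unfolded protein response and the targets of glucocorticoid hormone. In bulk tissue, fewer cells of a type and less RNA per cell cannot be told apart.

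Total counts ran from 12.58 to 24.94 M in experiment 1A, from 9.48 to 13.78 M in experiment 1B and from 9.768 to 12.37 M in experiment 2. After removal of weakly counted genes 14431 of 38393 features were tested. The 16 granule cell markers summed to between 10610 and 11670 CPM (the count divided by the scaled library size in M) and the 16 Purkinje cell markers to between 10840 and 11660 CPM. The Hox genes and other markers of brainstem and deep nuclei were mostly too low to test, 13 of 20. These 20 summed to 453.2 to 541 CPM in experiment 1A and 519.7 to 564.1 CPM in 1B. In experiment 2 their sum was highest, at 592.1 to 624.7 CPM. The 18 forebrain markers in the tables summed to between 232 and 270.2 CPM. The granule and Purkinje cell sums were far above both, so the tissue label fits what was measured. All 4 Y-linked genes on the list were present in all 11 libraries.

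Before the comparisons, 3 pairs of libraries from different experiments stood out from the other pairs between experiments as alike. Over 5267 genes at a mean of at least 5 CPM with no 40-base stretch in common with another gene, the standard deviation of the log2 CPM difference was 0.17 between experiment 1A replicate 1 and experiment 1B replicate 2. It was 0.167 between experiment 1A replicate 2 and experiment 1B replicate 3, and 0.17 between experiment 1A replicate 3 and experiment 1B replicate 4. Pairs inside experiment 1A lay farther apart, at 0.211 to 0.265, as did those inside experiment 1B, at 0.195 to 0.317. Pairs inside experiment 2 lay at 0.163 to 0.199, so 2 of them, at 0.163 and 0.168, were as close as the 3 between experiments. Counting error alone would give 0.119 to 0.123 for the 3 alike pairs, so none of them agreed within sampling noise. Deviations from the mean of the experiment correlated across genes at 0.67, 0.54 and 0.71 in these pairs. Genes are not independent replicates, so these are descriptions. The labels present all 11 as separate samples. Whether 2 libraries of a pair came from 1 animal or 1 RNA was not stated in any source used, and was not tested. If they did, the libraries of experiments 1A and 1B are not independent, and p-values that use both are affected. This holds for every contrast here, since all 11 libraries share 1 estimate of the spread. No fit with these pairs as a block was made, because the labels do not give them.

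**Figure D1:**
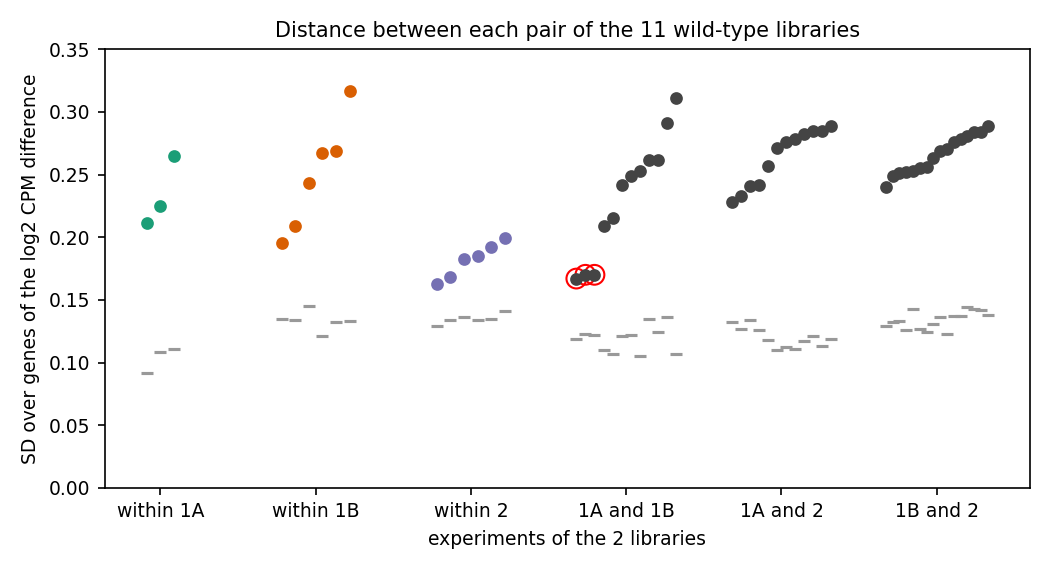
Each point is 1 pair of wild-type libraries, placed by the SD over 5267 genes of its log2 CPM difference (vertical axis) and by the experiments of its libraries (horizontal axis); grey dashes mark the SD that counting error alone would give. The 3 circled pairs between experiments 1A and 1B lie at 0.167 to 0.17, below each pair within 1A or within 1B.

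Sequence helps to read the first result, so 3 coding genes are shown beside a pseudogene copied from each. In each pair the first 90 bases were found that lie in 1 exon, in the coding sequence of the parent, and differ from the copy at 2 to 4 positions. Capitals mark the positions at which parent and copy differ (GENCODE vM21 transcripts, GRCm38). Ckb encodes brain creatine kinase, Ddx5 an RNA helicase, and mt-Co1 a subunit of cytochrome c oxidase that is encoded in mitochondrial DNA. The stretch of Ckb is chr12:111671869-111671958 on the minus strand and that of Gm12892 is chr4:122008193-122008282 on the plus strand.
Ckb: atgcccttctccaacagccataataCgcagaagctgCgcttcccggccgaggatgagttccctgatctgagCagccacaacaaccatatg
Gm12892: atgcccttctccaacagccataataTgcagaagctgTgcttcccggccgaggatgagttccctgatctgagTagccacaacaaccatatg
The stretch of Ddx5 is chr11:106786455-106786544 and that of Gm12183 is chr11:48753415-48753504, both on the minus strand.
Ddx5: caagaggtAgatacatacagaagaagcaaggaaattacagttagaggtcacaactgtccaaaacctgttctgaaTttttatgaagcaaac
Gm12183: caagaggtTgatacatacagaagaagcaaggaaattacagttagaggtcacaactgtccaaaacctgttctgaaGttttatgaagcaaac
The stretch of mt-Co1 is chrM:5328-5417 on the plus strand and that of Gm13340, a copy of mitochondrial DNA in the nuclear genome, is chr2:22589558-22589647 on the minus strand.
mt-Co1: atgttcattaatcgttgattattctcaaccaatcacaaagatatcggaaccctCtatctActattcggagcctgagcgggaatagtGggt
Gm13340: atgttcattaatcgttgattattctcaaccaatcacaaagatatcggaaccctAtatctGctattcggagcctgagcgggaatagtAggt
The stretches were 96.7%, 97.8% and 96.7% identical.

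Experiments 1A and 1B were compared first, as the 2 that share 3 alike pairs. Many pseudogenes were lower in experiment 1B and several coding genes that share sequence with copies were higher, while few genes without shared sequence passed the test. The fit treats the alike libraries as independent, so a low count does not show that genes did not differ. Of 14431 genes, 351 (2.43%) passed the adjusted threshold, 211 (1.46%) higher and 140 (0.97%) lower in experiment 1B. The libraries of experiments 1A and 1B did not overlap in 1562 of the 14431. Of 234 pseudogenes tested, 102 were lower and 6 higher, with a median log2 difference of -0.75, against -0.003 over all genes. Among 6986 genes with no shared 40-base stretch, 12 were higher and 18 lower, which is 0.429%. The share called was 15% among genes that share 10 to 50 percent of such stretches and 23.4% above that. A fit over the genes without shared stretches alone called 8. Without experiment 1A replicates 1, 2 or 3, or experiment 1B replicates 1 to 4, each left out in turn, the count of lower pseudogenes was between 81 and 95. Counts thinned to equal totals left 59. A filter at a mean of 5 CPM removes most pseudogenes and leaves 4 of them lower.

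Gm12892, the copy of Ckb, was counted at 6.53, 5.77 and 6.07 CPM in experiment 1A and at 0.906, 0.423, 1.04 and 0.572 CPM in experiment 1B. All 3 libraries of experiment 1A were above all 4 of experiment 1B, and the log2 difference was -3.04 ± 0.23 (SE; edgeR adjusted p = 1.3e-06). Ckb went the other way, from 399, 443 and 414 CPM to 615, 641, 669 and 659 CPM, again with no overlap (log2 difference 0.63 ± 0.05 SE, adjusted p = 2.93e-06). In experiment 2 the copy was at 0.408 to 0.812 CPM, as in experiment 1B, but Ckb lay between the others at 484 to 511 CPM. Ckb was lower there than in experiment 1B, by -0.38 ± 0.05 (SE) on the log2 scale (adjusted p = 0.0026).

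Gm12183, the copy of Ddx5, was at 19.9, 19 and 16.1 CPM in experiment 1A and at 3.47, 2.01, 1.56 and 1.93 CPM in experiment 1B, and the groups did not overlap. Its log2 difference was -3.00 ± 0.18 (SE; adjusted p = 1.38e-07), and experiment 2 stayed at the lower level, 1.67 to 2.55 CPM. Ddx5 itself was 0.26 ± 0.06 (SE, log2) higher in experiment 1B than in 1A (adjusted p = 0.0193), at 1295 to 1496 CPM against 1136 to 1219 CPM.

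Copies of mitochondrial DNA in the nuclear genome showed steep steps. Gm13340 was at 70.3, 64.8 and 68.3 CPM in experiment 1A, at 4.23 to 6.44 CPM in experiment 1B and at 4.29 to 7.6 CPM in experiment 2. The log2 difference of experiment 1B from 1A was -3.72 ± 0.13 (SE; adjusted p = 4.09e-10). Its parent mt-Co1 did not pass the threshold, at 10467 to 12356 CPM in experiment 1A and 8398 to 10254 CPM in experiment 1B (adjusted p = 0.129). The same step was found in Gm13341, with 33.8, 33.8 and 39.7 CPM in experiment 1A against 3.7 to 4.99 CPM in 1B, and in Gm13339, with 10.7 to 12.5 CPM against 0.644 to 1.14 CPM. It was found too in Gm11410, with 19.8 to 22.5 CPM against 0.416 to 1 CPM. The gene each shares most 40-base stretches with is mt-Co2, mt-Nd2 and mt-Cytb in that order, for Gm11410 with only 1.61% of its stretches.

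Some coding genes that share sequence with copies were higher in experiment 1B than in 1A, while the median log2 difference of genes that share over 50 percent was 0.001. Rpl41, a small ribosomal protein, was at 3.84, 3.68 and 5.28 CPM in experiment 1A, at 18.1, 22.4, 21.8 and 17 CPM in 1B and at 20.4 to 27 CPM in experiment 2. Slc25a5, the ADP/ATP carrier of the inner mitochondrial membrane, was at 22.4 to 25.4 CPM in experiment 1A, 55.4 to 62.7 CPM in 1B and 58.4 to 65.1 CPM in experiment 2. Its log2 difference of 1B from 1A was 1.30 ± 0.07 (SE; adjusted p = 4.3e-08). Pkm, a glycolytic enzyme, was 0.56 ± 0.05 (SE, log2) higher in 1B than in 1A (adjusted p = 6.19e-06), with ranges of 460 to 480 CPM and 314 to 332 CPM that did not overlap. Of 59 cytosolic ribosomal protein genes tested, 13 were higher and 1 lower in experiment 1B, median 0.31. The fit restricted to genes without shared stretches called none of the list higher. That fit leaves out every gene with a shared stretch, so it cannot tell a member that dropped out from one that lost its call. Of 62 nuclear genes for oxidative phosphorylation subunits, 5 were higher and 1 lower, beside 1.46% and 0.97% of all genes. Without experiment 1A replicate 1 or 3, or experiment 1B replicate 1, 2 or 3, the higher count was 3, and without experiment 1B replicate 4 it was 10. In the restricted fit it was 0, with the same limit.

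The antisense gene Gm14236 has no shared stretch and was counted in experiment 1A only: 7.55, 9.25 and 7.75 CPM in experiment 1A, and 0 reads in all 8 libraries of experiments 1B and 2. Without knowing how strand was treated in counting, its reads cannot be told from those of the gene it overlaps. Gm10800, which shares 37.6% of its stretches with other genes, was near 0 in experiment 1A (0.0799 to 0.801 CPM) and at 8.57 to 42.9 CPM in 1B. No source used states how reads with more than 1 match were counted, or the read length of each experiment. Their part in these differences was not tested.

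**Figure D2:**
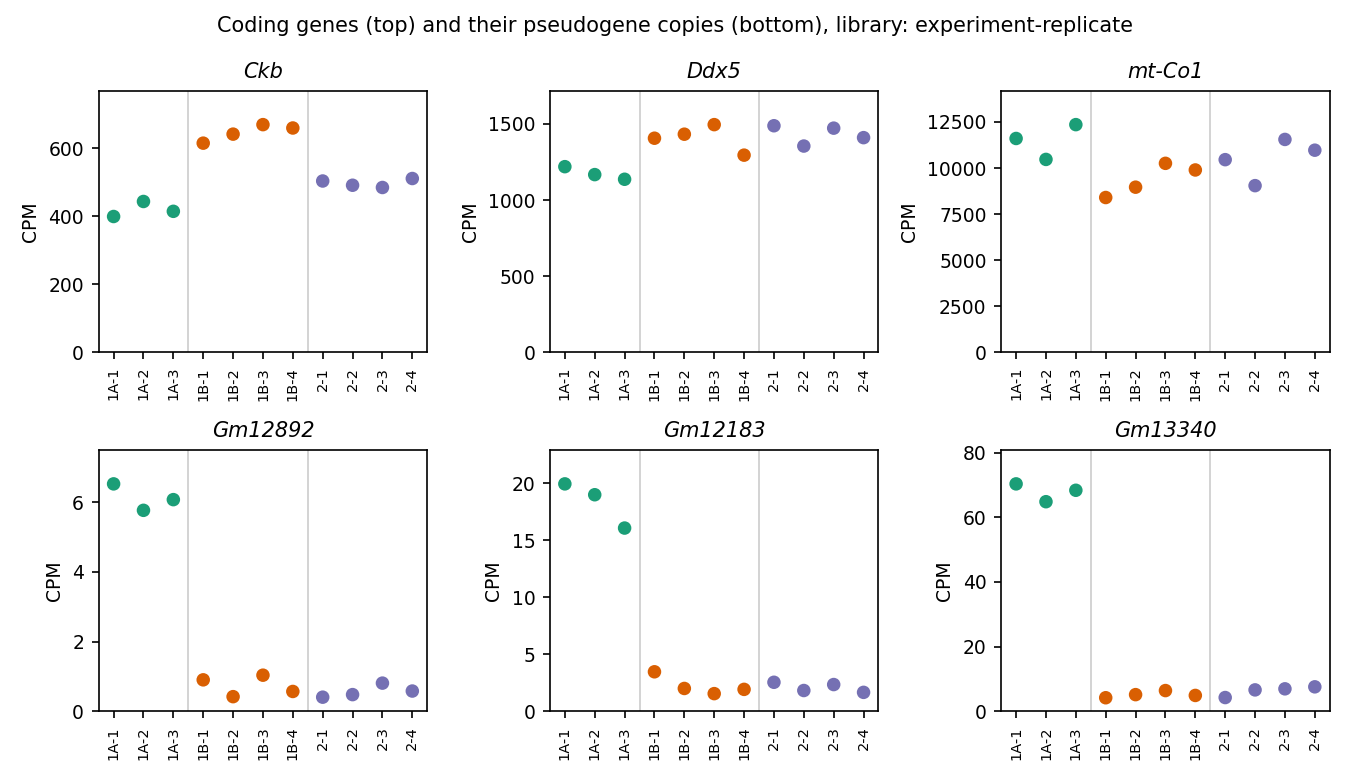
CPM (vertical axis, from 0) of 3 coding genes and of their pseudogene copies in each of the 11 wild-type libraries (horizontal axis, experiment and replicate). The 3 libraries of experiment 1A are high for Gm12892, Gm12183 and Gm13340, at 5.77 to 6.53, 16.1 to 19.9 and 64.8 to 70.3 CPM, and the other 8 are low.

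Experiment 2 was then compared with experiment 1B, in the same fit of all 11 libraries. Red blood cell genes and chaperones of the endoplasmic reticulum were lower in experiment 2. Most of the mitochondrially encoded messenger RNAs that could be tested, and some myelin genes, were higher. Of 16 granule cell markers 1 was lower, of 16 Purkinje cell markers 2 were lower, and none on these lists was higher. Of 15 inhibitory interneuron markers 0 were called. A total of 539 of 14431 genes (3.74%) passed, 241 (1.67%) higher and 298 (2.06%) lower. The libraries of experiments 1B and 2 did not overlap in 1896 of the 14431, so a lack of overlap was not rare. A fit of the 8 libraries of these experiments alone, which holds none of the alike pairs, called 622, 265 higher and 357 lower, and shared 495 calls. The count leaned on single libraries. Leaving out experiment 1B replicates 1, 2, 3 or 4 gave 145, 200, 223 or 944 calls, and leaving out experiment 2 replicates 1, 2, 3 or 4 gave 173, 286, 55 or 34 calls. Against experiment 1A, experiment 2 differed in 1513 genes (10.5%), 784 (5.43%) higher and 729 (5.05%) lower. The libraries of experiments 1A and 2 did not overlap in 3352 genes. Among genes without shared stretches 505 were called against 1A. With upper quartile scaling the split moved to 905 higher and 585 lower against 1A, and to 322 higher and 235 lower against 1B. Over the 3 experiments at once 1366 genes (9.47%) differed.

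The erythrocyte list held the largest differences. Of 9 genes, 5 were lower in experiment 2 than in 1B and none higher, with a median log2 difference of -3.38 (all genes: -0.002), and 6 were lower than in 1A. Over all genes 2.06% were lower than in 1B and 5.05% lower than in 1A. Hbb-bs, an adult beta globin, was at 139, 249, 195 and 1037 CPM in experiment 1B and at 45.5, 31.6, 34.4 and 39.9 CPM in experiment 2. The groups did not overlap, and the log2 difference was -3.43 ± 0.63 (SE; adjusted p = 0.0153). Hba-a1, an alpha globin, was at 33.1, 56.1, 46.5 and 278 CPM against 8.88, 5.4, 5.11 and 6.68 CPM (log2 difference -4.01 ± 0.73 SE, adjusted p = 0.0153). Both globins share most of their sequence with a neighbouring copy, so the split between Hbb-bs and Hbb-bt, or Hba-a1 and Hba-a2, is uncertain.

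Alas2, which makes the first step of heme synthesis in red cell precursors and has no such copy, was at 12.5, 24.5, 18.9 and 89.6 CPM in experiment 1B and at 4.49, 3.28, 3.49 and 3.01 CPM in experiment 2. Its log2 difference was -3.39 ± 0.71 (SE; adjusted p = 0.0235), and the groups did not overlap. Experiment 1A held the same level as 1B, at 22.5, 18.4 and 84.3 CPM for Alas2. Leaving out experiment 2 replicate 3 or 4 left 0 of the 9 erythrocyte genes below the threshold against 1B, with adjusted p from 0.0612 to 0.0866 for the 4 globins and Alas2 (log2 differences -3.31 to -4.12). Against 1A the count stayed at 5 or 6 without any 1 library. Of 16 endothelial and mural cell genes, 1 was higher and none lower in experiment 2 against 1B (all genes: 1.67% and 2.06%). Against 1A, 2 were higher and 1 lower (all genes: 5.43% and 5.05%). Slc2a1 of the blood-brain barrier and Col4a1 of basement membranes, not on this list and given below, lay lower in wild-type experiment 2 than in 1B. A part of vessels in the difference of blood genes was not tested.

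Chaperones and folding enzymes of the endoplasmic reticulum, the core of the unfolded protein response, were lower in experiment 2. Of 24 genes on the list of unfolded protein and integrated stress, 10 were lower than in experiment 1B and none higher (median log2 difference -0.32), and 10 were lower than in 1A. The shares lower over all genes were 2.06% and 5.05%. Leaving out experiment 1B replicates 1 to 4 in turn left 5, 6, 8 or 13 lower, and leaving out experiment 2 replicates 1 to 4 left 6, 6, 2 or 1. Other scalings, DESeq2 and the remaining alternatives left 9 to 12 against 1B. Against 1A the count was 5 without experiment 1A replicate 1, and 6 without experiment 1A replicate 2 or without experiment 2 replicate 1, 3 or 4. It was 5 in the fit restricted to genes without shared stretches, which leaves out members that have one.

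Promoters are shown for 3 of these genes, as the motif through which the response acts lies there. Each is a 300-base window around the transcription start (RefSeq, GRCm38.p6), with capitals marking the endoplasmic reticulum stress element, searched on both strands as CCAAT, then 9 bases of any kind, then CCACG. The windows are chr2:34771840-34772139 on the plus strand for Hspa5, chr8:84846882-84847181 on the minus strand for Calr and chr15:88819396-88819695 on the plus strand for Creld2.
Hspa5: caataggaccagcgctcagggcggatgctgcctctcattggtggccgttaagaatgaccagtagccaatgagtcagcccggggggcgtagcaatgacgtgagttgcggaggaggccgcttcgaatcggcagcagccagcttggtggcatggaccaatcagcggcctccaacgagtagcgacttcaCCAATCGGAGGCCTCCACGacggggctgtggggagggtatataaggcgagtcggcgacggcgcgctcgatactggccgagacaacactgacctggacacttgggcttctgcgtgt
Calr: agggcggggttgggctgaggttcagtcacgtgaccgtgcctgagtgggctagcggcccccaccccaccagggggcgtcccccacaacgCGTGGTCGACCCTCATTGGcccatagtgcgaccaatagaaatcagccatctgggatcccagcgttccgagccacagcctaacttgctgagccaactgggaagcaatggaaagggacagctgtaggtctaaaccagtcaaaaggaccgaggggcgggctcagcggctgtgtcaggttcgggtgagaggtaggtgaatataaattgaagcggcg
Creld2: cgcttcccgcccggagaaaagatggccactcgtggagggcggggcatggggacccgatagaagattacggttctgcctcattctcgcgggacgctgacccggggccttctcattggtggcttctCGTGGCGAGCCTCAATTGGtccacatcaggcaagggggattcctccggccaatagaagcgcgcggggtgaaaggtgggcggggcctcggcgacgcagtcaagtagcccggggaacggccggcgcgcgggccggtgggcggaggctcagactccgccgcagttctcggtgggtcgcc
Of 24 listed genes 23 had a window, and 6 held the element: Hspa5, Calr, Creld2, Hsp90b1, Pdia6 and Dnajc3. Over all genes 39 of 32851 windows held it, 0.119%. A match is a description of letters, and the list was built of genes known to respond.

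Hspa5, the main chaperone of the endoplasmic reticulum lumen (BiP), was at 484, 522, 376 and 253 CPM in experiment 1B and at 219, 207, 196 and 194 CPM in experiment 2. The lowest library of 1B was above the highest of experiment 2, and the log2 difference was -1.0 ± 0.2 (SE; adjusted p = 0.019). Experiment 1A spanned a similar range to 1B for Hspa5, 463, 331 and 236 CPM. Calr, a chaperone of glycoproteins, was at 486, 522, 407 and 392 CPM against 318, 307, 307 and 316 CPM (log2 difference -0.54 ± 0.09 SE, adjusted p = 0.0126). Creld2, a secreted chaperone-like protein, was at 17.2, 20.2, 16.4 and 12.5 CPM against 10.2, 9.26, 11 and 9.68 CPM (-0.71 ± 0.18 SE, adjusted p = 0.0431).

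Manf, a stress-induced factor of the secretory pathway, was at 55.2, 66.2, 46.6 and 37.3 CPM in experiment 1B and at 27.6, 23.3, 24.1 and 23.7 CPM in experiment 2. Its log2 difference was -1.05 ± 0.17 (SE; adjusted p = 0.0107) without overlap of the groups. Sdf2l1, a partner of the chaperones, was at 16.3, 14.6, 9.56 and 6.8 CPM against 4.9, 3.66, 2.43 and 3.59 CPM (-1.71 ± 0.30 SE, adjusted p = 0.0142). Xbp1, the transcription factor of the response, was at 117, 113, 100 and 78.2 CPM against 56.1, 66.6, 56.1 and 60.8 CPM (-0.77 ± 0.14 SE, adjusted p = 0.0153). In experiments 1A and 1B these genes ran together within the experiment, with Hspa5, Manf and Sdf2l1 lowest in experiment 1A replicate 3 and experiment 1B replicate 4, which form 1 of the alike pairs. Atf4, a transcription factor of the integrated stress response, was at 108 to 144 CPM in 1B and 113 to 118 CPM in experiment 2 (adjusted p = 0.541).

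Mitochondrially encoded messenger RNAs were higher in experiment 2 than in 1B in 5 of 7 genes tested (median log2 difference 0.48), against 1.67% of all genes. The list holds 13 genes, and mt-Nd3, mt-Nd4l, mt-Co2, mt-Co3, mt-Atp6 and mt-Atp8 were too weakly counted to test. The result therefore does not cover the whole class. The gene mt-Nd5, for a subunit of complex I, was at 6580, 6895, 6933 and 6076 CPM in experiment 1B and at 9769, 8717, 11393 and 11291 CPM in experiment 2. The log2 difference was 0.64 ± 0.09 (SE; adjusted p = 0.00485), with no overlap. The gene mt-Nd1, of the same complex, was lower in experiment 1B than in both others, 6728 to 8098 CPM against 8941 to 11952 CPM in 1A and 8664 to 11334 CPM in experiment 2. Leaving out experiment 2 replicate 4 left 2 of the 7 called. In the fit restricted to genes without shared stretches, which leaves out members that have one, 1 was called.

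Glucocorticoid-induced genes were lower in 4 of 19, median -0.34, with none higher, beside 2.06% lower and 1.67% higher among all genes. Zbtb16, a transcription factor, was at 54.4, 43.5, 21.8 and 16.7 CPM in experiment 1B and at 12.2, 10.6, 5.52 and 12.4 CPM in experiment 2 (log2 difference -1.75 ± 0.38 SE, adjusted p = 0.0264). Tsc22d3 (GILZ) was at 76.6 to 96.8 CPM against 51.5 to 66.5 CPM (-0.50 ± 0.09 SE, adjusted p = 0.0128), and Fkbp5, a cochaperone of the receptor, at 10.7 to 20.2 CPM against 7.22 to 9.7 CPM (-0.84 ± 0.19 SE, adjusted p = 0.0286). None of the 3 overlapped, as was so for 1896 of all 14431 genes. Leaving out experiment 2 replicate 4 left 0 of the list called. The count was 1 without experiment 1B replicate 1 or 2 or without experiment 2 replicate 1, 2 or 3.

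Of 16 oligodendrocyte genes 4 were higher, Aspa, Gjb1, Mal and Opalin, median 0.14, and none lower. The shares of all genes, for this list and the next 2, were 1.67% higher and 2.06% lower. Mal, a myelin proteolipid, was at 287 to 314 CPM in experiment 1B and at 326 to 363 CPM in experiment 2 (0.20 ± 0.05 SE, log2, adjusted p = 0.0379). Of 7 brainstem and deep nuclei genes that could be tested 2 were higher, Spp1 and Nefh. Leaving out experiment 2 replicate 3 or 4 left 0 called on both lists, as did experiment 1B replicate 1 or experiment 2 replicate 1 for oligodendrocytes. Cholesterol synthesis genes were higher in 2 and lower in 1 of 19. The 2 became 1 without experiment 1B replicate 1, 2 or 3 or experiment 2 replicate 1, 3 or 4. They became 4 without experiment 1A replicate 3 and 5 without experiment 1B replicate 4. The fit restricted to genes without shared stretches, which leaves out members that have one, called 0 higher. Hmgcs1, an early enzyme of the pathway, was at 233 to 242 CPM in experiment 1B and 278 to 320 CPM in experiment 2.

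Some single genes separated experiment 2 from both others cleanly, and were chosen here after their values were seen. S1pr5, a sphingosine phosphate receptor of oligodendrocytes, was at 14.9 to 15.7 CPM in experiment 1A, 15.3 to 17.6 CPM in 1B and 23.5 to 24.7 CPM in experiment 2 (0.53 ± 0.07 SE, log2, against 1B, adjusted p = 0.00422). Ptprn, a protein of dense core vesicles, was at 157 to 169, 138 to 163 and 99.3 to 115 CPM in the same order. Slc2a1, the glucose carrier of the blood-brain barrier, was at 93.6 to 102, 87.3 to 117 and 64.4 to 71.7 CPM. Col4a1, a basement membrane collagen, was at 61.2 to 74.2, 60.7 to 66.5 and 37 to 51.7 CPM.

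Base composition moved with experiment 2. Among genes without shared stretches, the fifth with the highest GC content held 9 higher and 95 lower calls against experiment 1B, with a median log2 difference of -0.08, and the fifth with the lowest GC held 16 higher and 2 lower, median 0.02. In Mir7DKO the medians of these groups of genes were -0.06 and 0.02. The part of base composition in the differences of single genes was not tested.

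Pisd-ps1 gave a pattern of its own. This transcribed pseudogene of the phosphatidylserine decarboxylase gene Pisd was at 14.3, 15.8 and 14.5 CPM in experiment 1A and at 17.1, 11.5, 15.4 and 14 CPM in experiment 1B. Its 4 values in experiment 2 were 89.5, 92.8, 34.7 and 35 CPM, in the order of the replicates. The log2 difference from 1B was 2.10 ± 0.29 (SE; adjusted p = 0.00485). In Mir7DKO Pisd-ps1 was at 46.8, 42.5, 41.8 and 88.4 CPM in experiment 1B and at 52.3, 40.4 and 41.1 CPM in experiment 2. All 7 wild-type libraries of experiments 1A and 1B thus lay below all 11 others. Pisd itself was at 13.5 to 16.6 CPM in the wild type of 1B and at 26.6, 25.6, 21.1 and 18.3 CPM in experiment 2, so that for both genes replicates 1 and 2 were above replicates 3 and 4. The gene shares 17.8% of its 40-base stretches with other genes, most with Pisd.

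Mir7DKO mice of the same experiments show how far these differences go beyond the wild type. Between experiments 2 and 1B, 8 of 14233 genes passed in Mir7DKO (0.0562%), 1 higher and 7 lower, and 55 by DESeq2. Leaving out Mir7DKO experiment 2 replicate 1 left 0, so no call in this genotype held without that library. Leaving out experiment 2 replicate 2 or 3 gave 9 or 6. Leaving out experiment 1B replicates 1, 2, 3 or 4 gave 18, 4, 8 or 15. Whether experiment 2 replicate 1 itself or the smaller group removed the calls was not tested. Of the 539 wild-type calls 535 were tested there, 509 had the same sign, and 7 were called, which is 1.3% of the wild-type calls and 87.5% of the Mir7DKO calls. The sign was shared by 69.8% of all genes tested in both. Mir7DKO and wild type of an experiment share its handling but no library. Hbb-bs was at 119 to 364 CPM in Mir7DKO of experiment 1B and at 31.6 to 49.6 CPM in that of experiment 2 (adjusted p = 0.0055), the same direction as in wild type. Hspa5 was at 221 to 482 CPM and 221 to 268 CPM there, with overlap (adjusted p = 0.495). The median of the stress list was -0.29, with 23 of 24 genes negative, beside 0.005 over all genes. Glucocorticoid-induced genes were negative in 18 of 19 (median -0.57) and immediate early genes in 25 of 25 (-0.62). Oligodendrocyte genes were negative in 0 of 16 (0.19) and mitochondrially encoded genes in 0 of 7 (0.41), as in wild type mostly higher. Choroid plexus genes had a median of 1.55, opposite to -0.79 in wild type. Col4a1 went its own way, at 41.6 to 59.8 CPM in Mir7DKO of 1B and 47 to 52 CPM in that of experiment 2. In a joint model with both genotypes, 0 of 14532 genes differed in their step between experiments by edgeR, 556 at an unadjusted p under 0.05, and 3 by DESeq2, Msn, Fmo2 and Pisd-ps1.

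**Figure D3:**
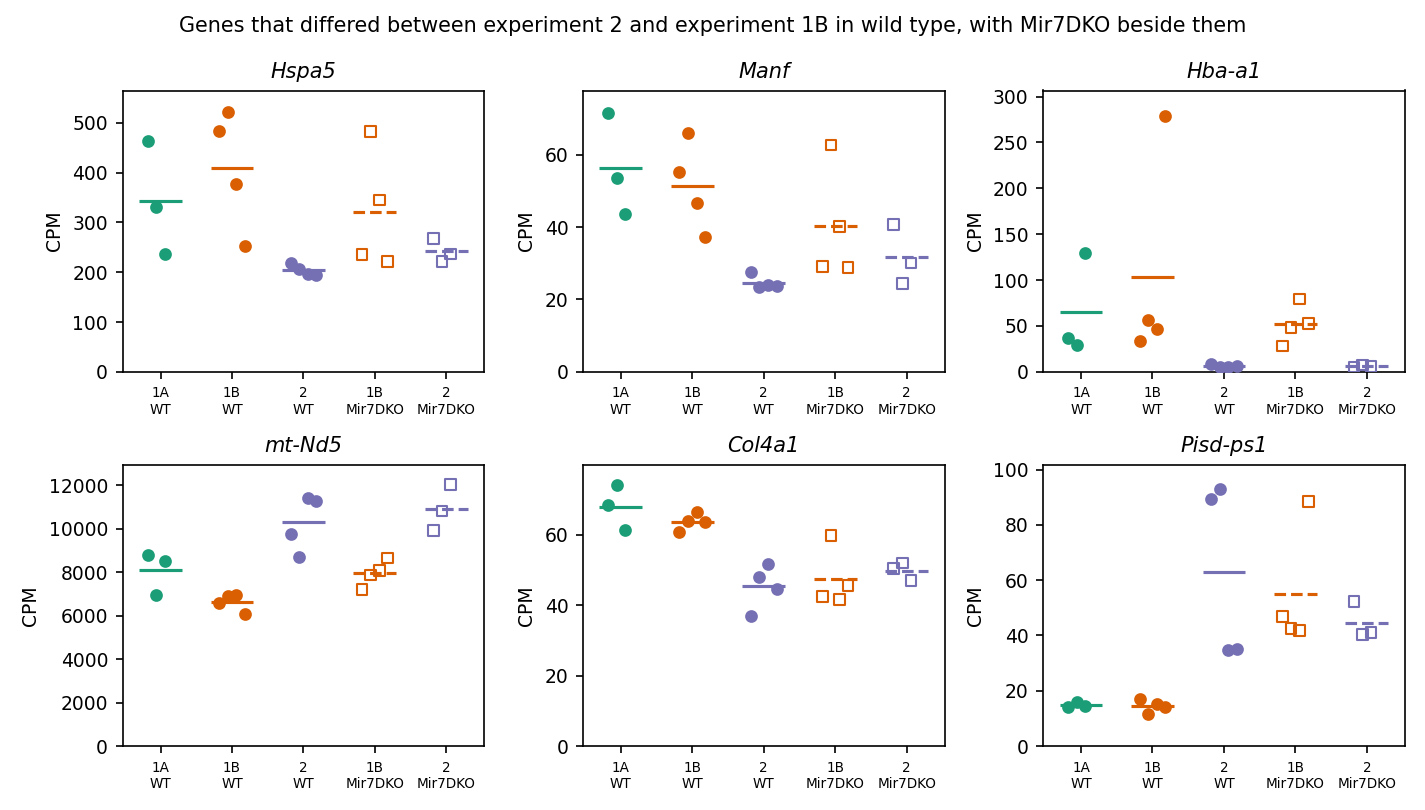
CPM (vertical axis, from 0) of 6 genes in the wild-type libraries of the 3 experiments (filled points, solid bar at the mean) and in Mir7DKO of experiments 1B and 2 (open squares, dashed bar at the mean). Wild-type experiment 2 lies below wild-type 1B for Hspa5, Manf, Hba-a1 and Col4a1 and above it for mt-Nd5 and Pisd-ps1, and Pisd-ps1 in Mir7DKO lies at 40.4 to 88.4 CPM in both experiments.

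Within an experiment most genes varied little. Over 11142 genes at a mean of at least 5 CPM, the median SD of log2 CPM between libraries of 1 experiment was 0.114, with 10% of genes below 0.06 and 10% above 0.214, where counting error alone gives a median of 0.068. By experiment the median was 0.104 in 1A, 0.116 in 1B and 0.087 in experiment 2. The common biological coefficient of variation was 10.3%, 10% and 4.6%. An SD over 0.5 was found in 58 genes and one over 1 in 13. The genes of largest spread fell into a few kinds, described next without tests.

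Choroid plexus led. Ttr, transthyretin, made in quantity by choroid plexus epithelium, was at 290 CPM in experiment 1A replicate 1 and 312 CPM in experiment 1B replicate 2, and at 0.358 to 8.68 CPM in the other 9 libraries. Its within-experiment SD was 3.0 on the log2 scale. Kl, the klotho gene of the same epithelium, was at 21.7 and 20.5 CPM in those 2 libraries and at 0.981 to 2.41 CPM elsewhere. Enpp2, autotaxin, was at 487 and 484 CPM there and at 152 to 221 CPM elsewhere. The 16 choroid plexus markers together gave 900.4 and 912.6 CPM in those libraries against 196.5 to 269.4 CPM. Both libraries form 1 of the alike pairs. In Mir7DKO, Ttr was at 251 CPM in 1 library of experiment 1B and at 582 and 363 CPM in 2 of experiment 2, and at 0.868 to 5.29 CPM in the other 4.

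Immediate early genes came next. Fos was at 38.2, 86.3 and 4 CPM in experiment 1A, at 13.1, 34.1, 72.8 and 3.58 CPM in experiment 1B and at 25.4, 2.22, 6.74 and 9.27 CPM in experiment 2. Each library of 1A had its near match in the alike library of 1B. Nr4a1, a nuclear receptor induced by activity, followed Fos, with its highest values of 67.6 and 75.5 CPM in experiment 1A replicate 2 and experiment 1B replicate 3 and its lowest of experiments 1A and 1B, 11.1 and 11.8 CPM, in the pair low for Fos. Nr4a3 and Dusp1 were highest in the same 2 libraries, at 117 and 122 CPM and at 97.5 and 97.6 CPM. Npas4, a neuronal activity factor, was at 2.36 to 18.7 CPM in experiments 1A and 1B and at 1.16 to 2.84 CPM in experiment 2. Over 25 such genes tested 1 was lower in experiment 2 than in 1B and 4 were lower than in 1A. Among all genes 2.06% and 5.05% were lower. Of the 25, 22 were negative against 1B, median -0.77. The summed list ran from 378.6 to 974.7 CPM in experiments 1A and 1B and from 324.6 to 497.4 CPM in experiment 2. Arc, of the same class, did not vary with them, at 10.8 to 17.2 CPM in all 11.

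Several neuronal genes varied with Fos or beside it. Eomes, the transcription factor of unipolar brush cells, was at 85.8, 105 and 22.8 CPM in experiment 1A, at 65.5, 82.3, 107 and 16 CPM in 1B and at 18.7 to 26.8 CPM in experiment 2, while the median within-experiment SD of that cell type's markers was 0.087. Gucy1a2, a subunit of the nitric oxide receptor, was at 38.1, 12.7 and 6.15 CPM in 1A, at 27.2, 35.9, 12.3 and 5.08 CPM in 1B and at 7.04 to 14 CPM in experiment 2. Lnpep, a membrane aminopeptidase, was high in the same libraries, 161 CPM in 1A and 140 and 165 CPM in 1B, and at 37.4 to 77.1 CPM in the other 8. The high values of Gucy1a2 and Lnpep were in experiment 1A replicate 1 and experiment 1B replicates 1 and 2, which were not the libraries highest for Fos.

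Blood genes varied inside experiments as well. The erythrocyte list summed to 1917 CPM in experiment 1A replicate 3 and 1968 CPM in experiment 1B replicate 4, another alike pair, and to 385.1 to 612.8 CPM in the other 5 libraries of these experiments. In experiment 2 it was at 205.3 to 230.3 CPM in all 4. The range of Hbb-bs in experiment 1A, 259 to 1198 CPM, was wider than that in experiment 2.

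Experiment 2 had its own variable genes. Ifit3 and Oasl2, both induced by interferon, were at 14.9 and 13.6 CPM in replicate 4 of experiment 2 and at 4.8 to 6.9 and 5.21 to 6.09 CPM in replicates 1 to 3. The 20 interferon response genes summed to 306.5 CPM in that library and to 195.6 to 244.7 CPM in the other 10. Slc15a2, a peptide carrier, was at 82.9, 21.1, 90.5 and 37.3 CPM across experiment 2, at 52.4 to 68.6 CPM in 1A and at 34.3 to 72.7 CPM in 1B. It ranged still wider in Mir7DKO, from 5.88 to 124 CPM. Eps8l1 was at 0.453 CPM in experiment 1B replicate 1 and at 3.67 to 10.4 CPM in the other 10.

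**Figure D4:**
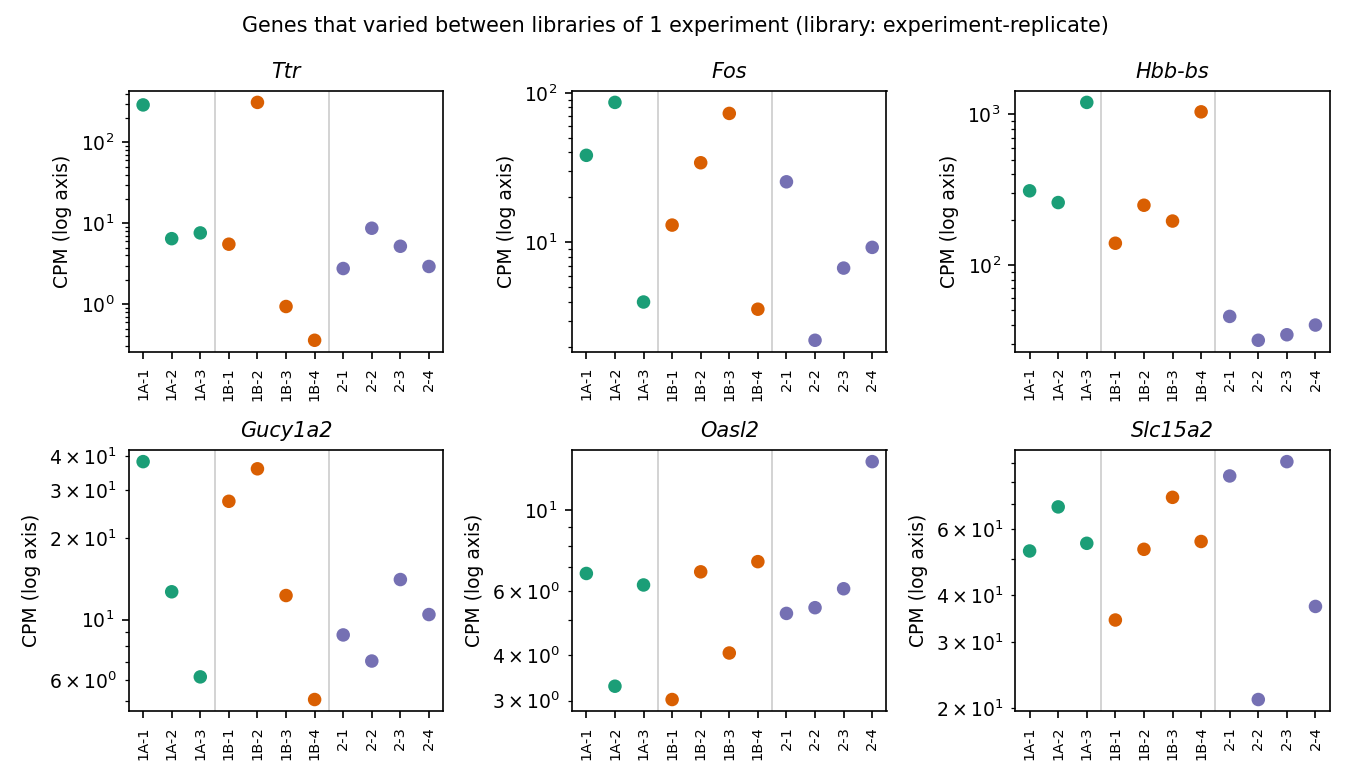
CPM on a log axis (vertical) of 6 genes in each of the 11 wild-type libraries (horizontal axis, experiment and replicate). Ttr reaches 290 and 312 CPM in 1 library each of experiments 1A and 1B, Hbb-bs is highest in another library of each, and Oasl2 is highest in replicate 4 of experiment 2.

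Stable genes outnumbered those of wide range, but most genes were neither. Of 11142 genes, 3079 (27.6%) had their highest of 11 libraries less than 25% above the lowest, called stable here, and 398 (3.57%) ranged over more than 2-fold. With experiments 1B and 2 alone 4338 were stable, where the range is taken over fewer libraries and so tends to be narrower. Of the 3079, 2933 had a mean of at least 20 CPM. The median within-experiment SD was 0.0958 at that minimum, beside 0.114 at a minimum of 5 CPM. The smallest spread at a mean of at least 50 CPM was that of Zfp91, a zinc finger protein, at 276, 269 and 279 CPM in experiment 1A, 278, 272, 270 and 274 CPM in 1B and 268, 279, 278 and 278 CPM in experiment 2. Its SD over the 11 was 0.023 on the log2 scale. Frrs1l, an auxiliary protein of AMPA receptors, stayed within 747 to 790 CPM, and Map3k12, the DLK kinase of axons, within 247 to 262 CPM. Next in order came Cpsf7 (117 to 124 CPM), Gfod1 (223 to 239 CPM), Tsc2 (143 to 152 CPM), Slc38a1 (662 to 709 CPM) and Pfn2 (185 to 198 CPM). The remaining 7 of the 15 were Tacc1, Abi2, Ppp2ca, Dido1, BC005537, Abr and Hdlbp. They were chosen for small spread on these libraries. In the 7 Mir7DKO libraries Zfp91 was at 258 to 288 CPM and Frrs1l at 725 to 809 CPM.

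Genes in common use as references were stable about as often as all genes. Of 23 at or above 5 CPM, 6 were stable, beside 27.6% of all genes, and 9 of 25 differed over the 3 experiments, against 9.47% of all genes. The references were not matched to all genes in abundance, on which the spread depends. Actb was at 454 to 532 CPM in experiment 1A, 535 to 655 CPM in 1B and 620 to 662 CPM in experiment 2 (0.37 ± 0.07 SE, log2, of 2 against 1A, adjusted p = 0.0059). Gapdh was counted at only 6.46 to 11.3 CPM, and it shares 25.9% of its 40-base stretches with other genes. Eef1a1 was at 124 to 132 CPM in 1A and 149 to 190 CPM in the others, and shares 44.7%. Hprt, which shares none, was at 74.3 to 80.8 CPM in experiments 1A and 1B and 83.8 to 88.1 CPM in experiment 2.

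Cell type markers of the cerebellar cortex differed in this by list. Stable genes were 10 of 16 for Purkinje cells and 9 of 14 for Bergmann glia and astrocytes, but 5 of 16 for granule cells, 5 of 14 for inhibitory interneurons and 3 of 7 for unipolar brush cells, beside 27.6% of all genes. These lists were not matched in abundance either, so the shares are not like for like. Calb1, a calcium buffer of Purkinje cells, was at 965 to 1081 CPM in all 11, and Car8 at 1637 to 1874 CPM. Pcp2, of the same cells, was an exception, at 304 to 382 CPM in experiment 1A, 256 to 317 CPM in 1B and 225 to 278 CPM in experiment 2 (-0.50 ± 0.09 SE, log2, of 2 against 1A, adjusted p = 0.00326). None of 42 cytosolic ribosomal protein genes at or above 5 CPM was stable. The RNA that the study is about, Cyrano (1700020I14Rik), was at 1577 to 1899 CPM in 1A, 1576 to 1954 CPM in 1B and 1612 to 1731 CPM in experiment 2, and did not differ past the threshold (adjusted p = 0.413). Cdr1as, the circular RNA counted as a feature of its own, was at 1058 to 1243 CPM in 1A, 646 to 1150 CPM in 1B, the lowest being replicate 1, and 959 to 1191 CPM in experiment 2 (adjusted p = 0.439).

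**Figure D5:**
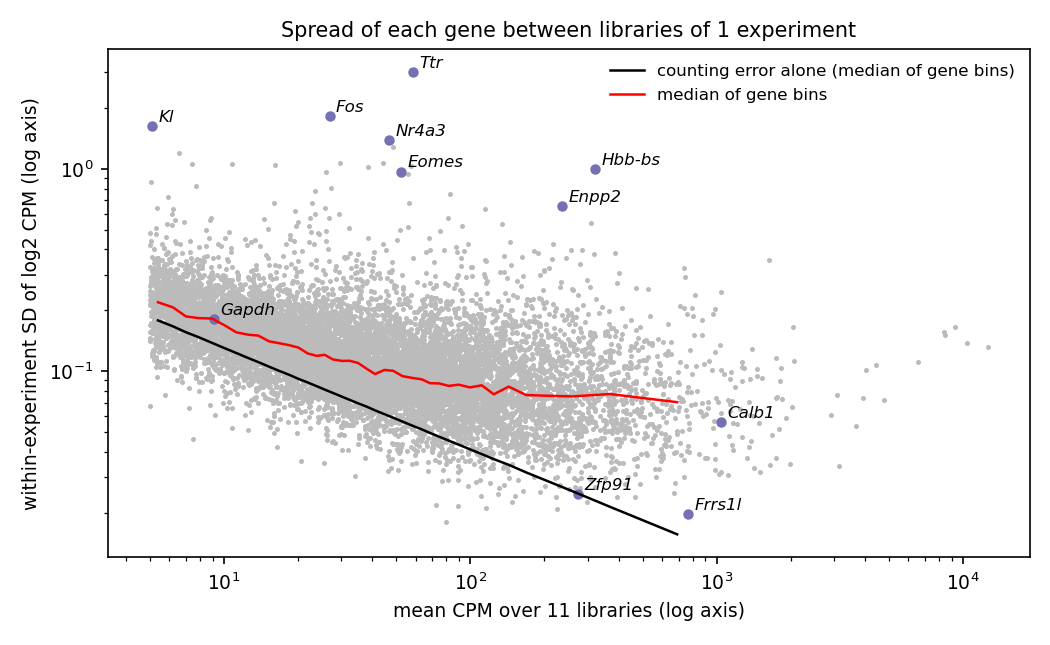
Each grey point is 1 of the genes at a mean of at least 5 CPM, with the mean CPM over the 11 libraries (horizontal, log axis) and the within-experiment SD of log2 CPM (vertical, log axis); the red line is the median of gene bins and the black line the SD that counting error alone gives. Ttr, Kl and Fos lie highest, and Zfp91 and Frrs1l near the counting line.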

How the data were processed

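Polyadenylated RNA of wild-type cerebellum was counted in 11 libraries, with 7 of Mir7DKO beside them. The authors deposited raw counts per gene, 1 table for each comparison. Mapping with STAR 2.4, counting with HTSeq 0.6.1p1 and testing with DESeq2 1.10 are named in the submitters' processing notes, as are mm10 and GRCm38. Strand setting and the treatment of reads with several matches were not stated in the sources used. In 1 table a record lacking a cell was put back in place.

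Tables were joined by gene ID and fitted together in edgeR 4.0.16 under R 4.3.3, with experiment as the only term (quasi-likelihood F-test after TMM scaling, on genes that filterByExpr keeps at a minimum count of 10). Adjusted p-values are Benjamini-Hochberg values over all genes tested, called at 0.05. DESeq2 1.42.0 was the alternative tool. Spread is the SD of log2 CPM (prior count 2) between libraries of 1 experiment, pooled over experiments. Shared sequence is the share of a gene's 40-base stretches found in transcripts of other genes (GENCODE vM21). The steps were tested on simulated data. Totals of 9.48 to 24.94 M counts and the number of libraries set the precision.

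The members, lists and rules were chosen with earlier results of these data known. Named genes are the 12 of smallest p over the experiments, up to 6 of largest difference in each direction and pair, the 15 of largest and the 15 of smallest spread, the 5 of largest spread in each experiment, the 5 of largest spread and of smallest p in each list, and all reference and network RNAs. Arc, Atf4, Calb1, Car8, Ckb, Col4a1, Creld2, Ddx5, Enpp2, Fmo2, Gm14236, Lnpep, Msn, Oasl2, Pisd, Pkm, Ptprn, S1pr5 and Slc2a1 fall outside this rule and were chosen after their values were seen. Equal replicate numbers did not pair libraries across experiments, as same-numbered libraries correlated at -0.24 to 0.31. The 3 alike pairs did follow the order of the numbers. Replicates 1, 2 and 3 of experiment 1A went with replicates 2, 3 and 4 of experiment 1B, at correlations of 0.67, 0.54 and 0.71.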

Additional observations from a re-analysis of the deposited data

Results flagged for a closer look

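In groups of 4 libraries, a library was marked where its gap to the nearest of the others made up more of the group's range than Dixon's critical value for 4 samples. This was checked for the genes and list sums whose library values are given above, in 114 groups, and 12 were marked. Chance marks about 1 group in 20 where groups are not chosen by their values. Many of these genes were named for large or small spread or after their values were seen, and genes of 1 kind move together, so the number marked cannot be set against that rate.

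Experiment 1B replicate 2 was marked for choroid plexus, with Ttr at 311.8 CPM (others 0.3577 to 5.51), Kl at 20.54 CPM (others 0.9812 to 1.717), Enpp2 at 483.7 CPM (others 152 to 182.9) and the summed list at 912.6 CPM (others 196.5 to 229.9). Experiment 1B replicate 4 was marked for blood, with Hbb-bs at 1037 CPM (others 139.3 to 248.9), Hba-a1 at 278.4 CPM (others 33.14 to 56.1), Alas2 at 89.65 CPM (others 12.45 to 24.45) and the summed erythrocyte list at 1968 CPM (others 385.1 to 563.5).

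In experiment 2, replicate 4 was marked for Oasl2 at 13.61 CPM, with the others at 5.207 to 6.087. Replicate 1 was marked for S1pr5 at 23.48 CPM (others 24.51 to 24.68) and for Zfp91 at 267.6 CPM (others 278 to 279.1), where the whole range is small. Replicate 3 was marked for the summed Purkinje cell list at 10960 CPM, with the others at 11490 to 11550.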

How the results depend on the processing

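Under 21 other settings, 36 gene differences were followed singly. They were those past the threshold with the largest log2 difference in each pair of experiments, at a mean of at least 5 CPM. Of 726 values, 687 kept their direction and call, 39 lost the call and 0 reversed. That choice favours keeping the call, so these numbers do not speak for the other named genes or for all genes called. Without a filter on low counts the calls were 2431 over the 3 experiments, 695 for 1B against 1A and 938 for 2 against 1B. With a filter at 5 CPM, 201 remained for 1B against 1A. Restricted to genes without shared 40-base stretches, chosen after seeing the data, the fits called 411 over the 3 experiments, 8, 505 and 270 for 1B against 1A, 2 against 1A and 2 against 1B. Counts thinned to equal totals gave 312 for 2 against 1B. With equal replicate numbers as a block 343 were called for 2 against 1B and 30 in Mir7DKO. Equal numbers were not shown to pair the samples. Upper quartile scaling gave 905 higher and 585 lower for 2 against 1A and 322 higher and 235 lower for 2 against 1B.

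Leaving out 1 library gave 673 to 2085 calls over the 3 experiments, 252 to 511 for 1B against 1A, 701 to 1966 for 2 against 1A, 34 to 944 for 2 against 1B and 0 to 18 in Mir7DKO. DESeq2 called 55 in Mir7DKO and 3 in the joint model of experiment and genotype. The median spread was 0.131 at a minimum of 1 CPM and 0.0958 at 20 CPM. No cause was tested. At a mean of at least 5 CPM the median counting SD was 0.068, beside a median spread of 0.114.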
